A study of Macaca fascicularis with 2 samples.

Results

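Selenoproteins were followed in gastrocnemius muscle, a calf muscle, of the cynomolgus macaque, Macaca fascicularis. The set holds 10 genes picked by name for their place in this family: SEPW1 (selenoprotein W), SEPN1 (selenoprotein N), SEPP1 (selenoprotein P), SELT (selenoprotein T), SELK (selenoprotein K), GPX1, GPX3, GPX4, TXNRD1 and TXNRD2. SEPW1 was put in because of its difference between the libraries, so its values are a description. Of the 10 genes, 8 were measured among the 28175 genes of the files. The files named 6 by symbol and listed SELT, now SELENOT, and TXNRD1 under placeholder symbols that carry their NCBI gene numbers. SEPP1 and SELK were not matched by name and are not analysed here.

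The study compared 1 library labelled non-lean (high fat diet) with 1 labelled lean (chow diet), both made from polyadenylated RNA of gastrocnemius muscle. The labels do not state sex, age, time on diet or how many animals stand behind each library. The non-lean library held 12731974 estimated counts and the lean library 15983348, so that 1 count stands for 0.0748 CPM (counts scaled to a library of 1000000) in the non-lean and 0.0657 CPM in the lean library after scaling. All 10 muscle fibre markers looked up, among them ACTA1 and CKM, were detected in both libraries and summed to 179742 CPM in the non-lean and 239418 CPM in the lean library. With 1 library a group there is no replicate error and no test. Square brackets give the 95% interval of counting error alone, and every ratio is the log2 of non-lean over lean CPM.

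Selenoproteins carry selenocysteine, an amino acid that is placed at a UGA codon with the help of a hairpin in the 3′ untranslated part of the messenger RNA. Many are oxidoreductases with selenocysteine in the active site: glutathione peroxidases use glutathione to reduce peroxides, and thioredoxin reductases use NADPH to reduce thioredoxin. Others reside in the endoplasmic reticulum, where they act in protein quality control and calcium handling. In muscle the family is known through SEPN1, whose loss-of-function variants cause congenital myopathy in humans, and through selenoprotein W, first found as a protein missing from muscle of selenium-deficient lambs with white muscle disease.

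The family did not move as one between the libraries. Of the 8 measured members, SEPW1 was higher by 2-fold or more in non-lean muscle with an interval above 0, as were 4.91% of the 13707 genes with a mean of at least 1 CPM, which are called tested genes here. GPX3 was lower by 2-fold or more with an interval below 0, as were 7.16% of tested genes. Intervals lay above 0 for 3 members (SEPW1, GPX4 and GPX1), beside 25.8% of tested genes, and below 0 for 2 members (GPX3 and SEPN1), beside 28.8% of tested genes. The intervals of TXNRD1, TXNRD2 and SELENOT held 0. The median log2 ratio of the 8 members was 0.10, against -0.01 over all tested genes, and it was 0.02 over the 7 members other than SEPW1. Of these 7, 2 had intervals above 0 and 2 below. SEPW1 was picked for its difference, so its own call was known beforehand.

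**Figure D1:**
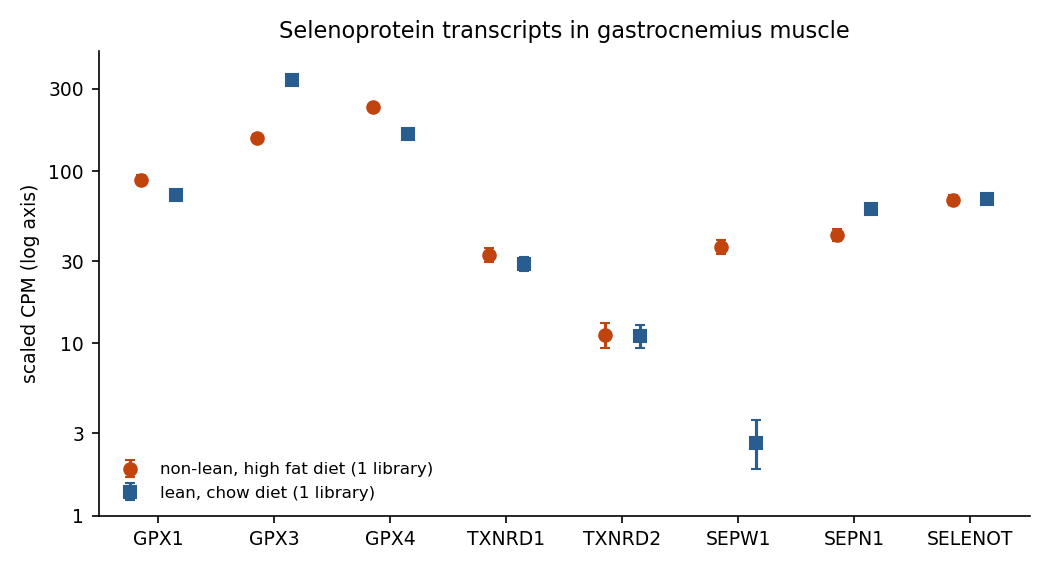
Scaled CPM of the 8 measured selenoproteins on a log axis, with 1 point for the non-lean and 1 for the lean library and exact 95% Poisson bars for counting error. SEPW1 stood at 36.3 CPM in the non-lean and 2.63 CPM in the lean library, while GPX3 stood at 157 CPM in the non-lean and 337 CPM in the lean library.

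Glutathione peroxidases differed in both directions. GPX3, the secreted peroxidase found in plasma and in the space outside cells, had 2096 counts (157 CPM) in the non-lean library and 5121 counts (337 CPM) in the lean library. That is 2.15-fold lower in non-lean muscle, with a log2 ratio of -1.10 [-1.18, -1.03], and 810 of the tested genes had a lower ratio. Scaled by total counts instead of the trimmed mean, its ratio was -0.96, short of 2-fold.

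GPX4, which reduces lipid peroxides inside membranes and protects cells from ferroptosis, had 3150 counts (236 CPM) in the non-lean library and 2509 counts (165 CPM) in the lean library. Its log2 ratio was 0.51 [0.44, 0.59], or 1.43-fold higher. GPX1, the cytosolic and mitochondrial peroxidase for hydrogen peroxide, had 1193 counts (89.2 CPM) in the non-lean library and 1101 counts (72.3 CPM) in the lean library, a ratio of 0.30 [0.18, 0.42]. Both enzymes that work inside the cell were thus higher where the secreted one was lower, and the direction of all 3 was the same under each scaling tried.

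The balance among the 3 peroxidases does not depend on library scaling. GPX3 took 32.6% (95% Clopper-Pearson interval 31.4 to 33.7) of their joint counts in the non-lean library and 58.7% (57.6 to 59.7) in the lean library. GPX4 took 48.9% (47.7 to 50.1) in the non-lean and 28.7% (27.8 to 29.7) in the lean library. GPX1 took 18.5% (17.6 to 19.5) in the non-lean and 12.6% (11.9 to 13.3) in the lean library. These are shares of reads and not of molecules, since longer transcripts give more reads and transcript lengths were not used here.

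Most markers of cells between the fibres were lower beside GPX3. For comparison, 28.8% of all tested genes had intervals below 0 and 25.8% above. Of the 8 fibroblast markers, 7 had intervals below 0 and none above, and their summed level was 490 CPM in the non-lean and 1089 CPM in the lean library. Of the 12 tested macrophage markers, 9 had intervals below 0 and none above, with sums over all 13 of 41.4 CPM in the non-lean and 129.9 CPM in the lean library. Of the 6 tested adipocyte markers, 5 had intervals below 0 and 1, FABP4, above, with sums over all 7 of 65.8 CPM in the non-lean and 85.4 CPM in the lean library, and the adipocyte hormone ADIPOQ had 3 counts in the non-lean and 46 in the lean library. Of the 7 endothelial markers, 5 had intervals below 0 and none above, with sums of 225 CPM in the non-lean and 284 CPM in the lean library. Median log2 ratios were -1.66 for the fibroblast, -1.39 for the macrophage, -2.51 for the adipocyte and -0.46 for the endothelial markers. No marker of these 4 lists was at 0 in either library. Their part in the GPX3 difference was not tested. In bulk muscle, fewer cells of a type and less RNA per cell cannot be told apart.

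The intervals of both thioredoxin reductases held 0. TXNRD1, the cytosolic enzyme, had 435 counts (32.5 CPM) in the non-lean library and 440 counts (28.9 CPM) in the lean library, giving a log2 ratio of 0.17 [-0.02, 0.36]. TXNRD2, the mitochondrial enzyme, had 149 counts (11.14 CPM) in the non-lean library and 167 counts (10.97 CPM) in the lean library, a ratio of 0.02 [-0.31, 0.35]. For TXNRD2 the interval reaches from 1.24-fold lower to 1.27-fold higher from counting error alone, so a small change was not detectable at this depth.

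Selenoprotein W, a small protein of the thioredoxin fold that is abundant in skeletal muscle of several mammals, showed the widest difference in the family. SEPW1 had 486 counts (36.3 CPM) in the non-lean library and 40 counts (2.63 CPM) in the lean library. Its level was 13.7-fold higher in non-lean muscle, with a log2 ratio of 3.77 [3.32, 4.29], and 25 of the tested genes had a higher ratio. SEPW1 made up 5.40% (4.95 to 5.89) of the counts of the 8 members in the non-lean and 0.353% (0.252 to 0.480) in the lean library. Under the scalings tried its ratio ran from 3.74 with the median of ratios to 3.92 with total counts.

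A single transcript model stands behind the SEPW1 value. Its estimated counts, 485.88 in the non-lean and 40.01 in the lean library, were not whole, so some of its reads were divided with other models in both libraries. The accession of that model is not among those of the RefSeq gene table used for names, where selenoprotein W has a gene number that the files do not list. Whether the SEPW1 model stands for the working selenoprotein W gene or for a copy of it was not tested, and the value is uncertain for that reason. Counts that were not whole and models missing from the gene table also occurred for other members, SEPN1 among them.

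The tested genes nearest to SEPW1 in level over both libraries, by Euclidean distance on log2 CPM over the 2 libraries and leaving out placeholder symbols, were FAAH2, CHRNA1 and SBK2. FAAH2, a fatty acid amide hydrolase, had 789 counts in the non-lean and 52 in the lean library and lay 0.79 log2 units away. CHRNA1, the alpha subunit of the muscle acetylcholine receptor, had 382 counts in the non-lean and 85 in the lean library and lay 1.13 units away. SBK2, a kinase gene, had 273 counts in the non-lean and 22 in the lean library and lay 1.19 units away. With 2 libraries any gene of like level and like ratio comes out near, so the measure says nothing more of these genes.

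**Figure D2:**
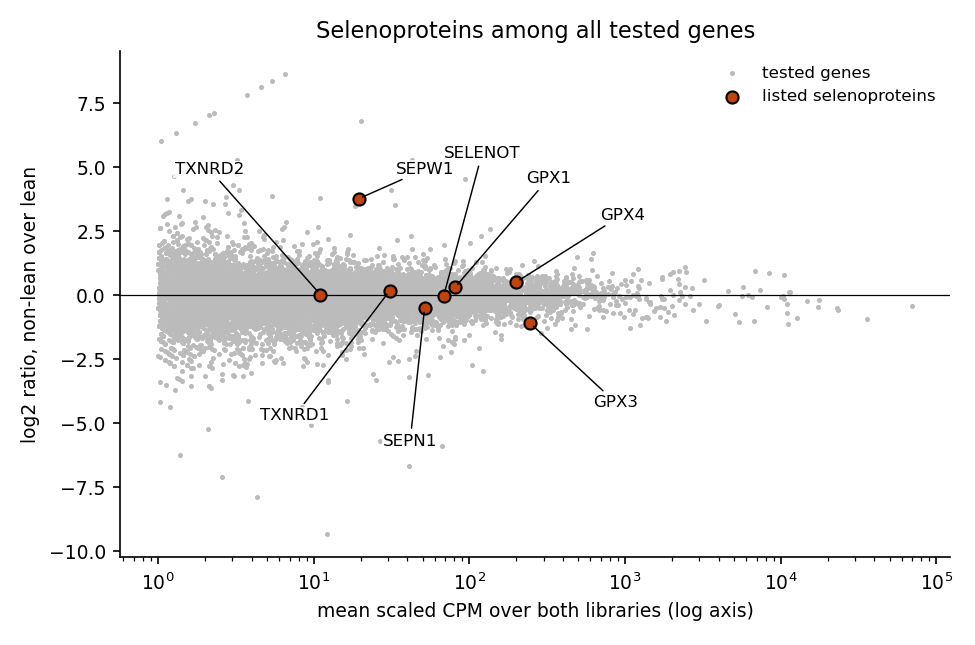
Log2 of non-lean over lean CPM (y axis) against mean scaled CPM of both libraries (log x axis) for the 13707 tested genes in grey and the 8 measured selenoproteins in colour. SEPW1 at 3.77 stands above nearly all genes of its level, GPX3 at -1.10 lies at the lower edge, and the others lie within the main cloud.

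Members of the endoplasmic reticulum included 1 that was lower, SEPN1, and 1 whose interval held 0, SELENOT. Selenoprotein N is a calcium-sensing membrane protein that acts on sarcoplasmic reticulum calcium pumps and is linked to the ryanodine receptor. SEPN1 had 571 counts (42.7 CPM) in the non-lean library and 920 counts (60.5 CPM) in the lean library. That is 1.42-fold lower in non-lean muscle, with a log2 ratio of -0.50 [-0.65, -0.35], and 20.1% of tested genes had a lower ratio. Selenoprotein T is a thioredoxin-like oxidoreductase of the same membrane system. SELENOT had 912 counts (68.2 CPM) in the non-lean library and 1046 counts (68.7 CPM) in the lean library, a ratio of -0.01 [-0.14, 0.12]. With total counts this ratio was 0.13, a scaling that lifts the median of tested genes by 0.14.

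Beside SEPN1, its calcium-handling partners were read from the same libraries. RYR1, the calcium release channel of skeletal muscle, had 16398 counts (1226 CPM) in the non-lean and 37044 counts (2434 CPM) in the lean library, with a log2 ratio of -0.99 [-1.02, -0.96]. The fast-fibre calcium pump ATP2A1 was lower at -0.46 [-0.47, -0.46]. The slow-fibre pump ATP2A2 was higher at 0.65 [0.62, 0.67], with 28020 counts in the non-lean and 20375 in the lean library. Fibre markers also differed in both directions. Of the 10 markers, 8 had intervals below 0, beside 28.8% of tested genes, and 2 above, beside 25.8%. Among the 8 were MYH1 of fast fibres at -0.93 and CKM at -0.57. The fast-fibre genes TNNT3 at -0.18 and MYH2 at -0.05, and DES at -0.09, were also among them. These genes have so many counts that small ratios exclude 0 too. Total counts lift the median of tested genes by 0.14, which exceeds the size of the MYH2 and DES ratios. The slow-fibre troponin TNNT1 was 2.17-fold higher, and the fast light chain MYLPF was at 0.13. The part of fibre type in the values of SEPN1 and its partners was not tested.

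In order of their ratios the members ran SEPW1, GPX4, GPX1, TXNRD1, TXNRD2, SELENOT, SEPN1 and GPX3. Neighbours from GPX1 down to SELENOT had overlapping intervals, while SEPW1, GPX4, SEPN1 and GPX3 each stood apart from their neighbours. These steps are counting intervals within a pair of libraries and carry no error between animals. Together the 8 members took 0.0706% (0.0692 to 0.0721) of all counts in the non-lean library and 0.0710% (0.0697 to 0.0723) in the lean library. Without SEPW1 the share was 0.0668% (0.0654 to 0.0682) in the non-lean and 0.0707% (0.0694 to 0.0720) in the lean library. Without GPX3 it was 0.0542% (0.0529 to 0.0555) in the non-lean and 0.0389% (0.0380 to 0.0399) in the lean library. The 10 most abundant genes of all, which share the same totals, took 21.5% of the counts in the non-lean and 26.8% in the lean library.

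The files give each transcript model its own row, and 4 of the members had several models. For SEPN1 the first of 3 models held 386.65 of 570.88 estimated counts in the non-lean library, or 67.7%, and 919.52 of 919.52 in the lean library. Its second model had 170.24 estimated counts in the non-lean and 0 in the lean library. For TXNRD2 the model that led in the lean library held 35.4% in the non-lean and 51.6% in the lean library, and another held 56.8% in the non-lean and 27.5% in the lean library. For TXNRD1 the same turn was seen, with the model that led in the lean library at 35.3% in the non-lean and 49.7% in the lean library and the next at 57.8% in the non-lean and 41.0% in the lean library. GPX4 kept a single leading model, with 91.3% in the non-lean and 87.1% in the lean library. Models of a gene share most of their sequence, so these splits rest on the few reads that tell them apart and have no error of their own in the files. The gene sums of GPX1 and GPX4 were whole numbers in both libraries, and GPX4 divided its reads among its own models. Those of SEPN1, SELENOT and GPX3, like that of SEPW1, were not whole in either library, so some reads were divided with models outside the gene. The gene table used for names held none of the 3 SEPN1 models and no TXNRD1 model that had counts.

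**Figure D3:**
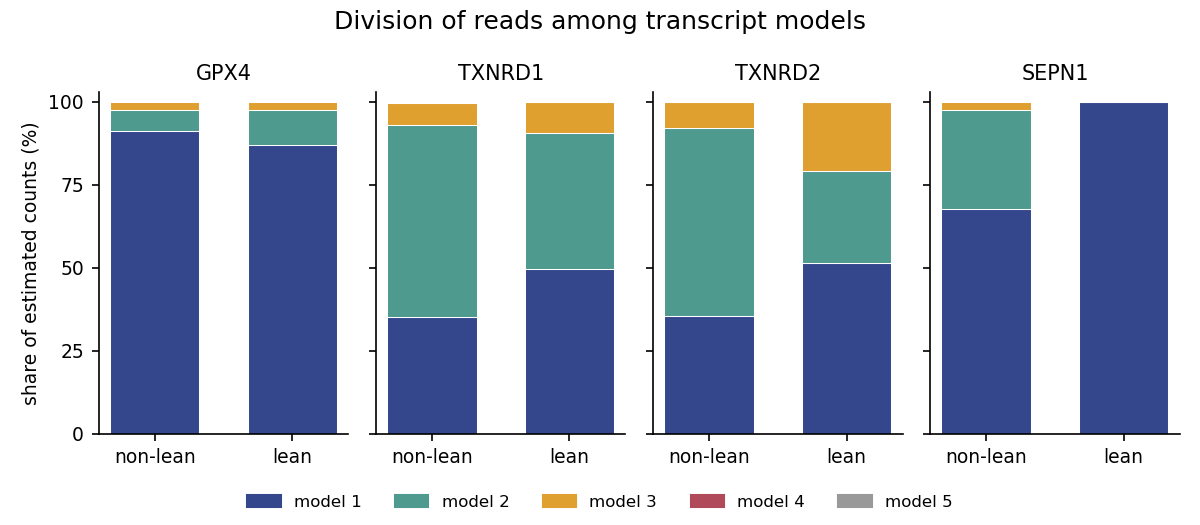
Share of each gene's estimated counts by transcript model, in percent, with the non-lean bar left of the lean bar, and models numbered by their lean counts. The first model of SEPN1 held 67.7% in the non-lean and all counts in the lean library, and the leading model of TXNRD1 and of TXNRD2 was not the same in both libraries.

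Among the other selenoproteins tested, none had an interval below 0, beside 28.8% of all tested genes. Of 15 further family members looked up, 13 were matched and 8 were tested. Intervals lay above 0 for 4 of these 8, beside 25.8% of all tested genes, and their median log2 ratio was 0.31, against -0.01 over all tested genes. MSRB1, which repairs oxidised methionine in cytosol and nucleus, had 683 counts (51.1 CPM) in the non-lean library and 465 counts (30.6 CPM) in the lean library, a ratio of 0.74 [0.57, 0.91]. SELENOI, an enzyme of phosphatidylethanolamine synthesis, had 131 counts in the non-lean and 100 in the lean library, a ratio of 0.57 [0.19, 0.97]. SELENOO, a mitochondrial enzyme that attaches AMP to proteins, had 587 counts in the non-lean and 592 in the lean library, a ratio of 0.17 [0.01, 0.34].

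SELENOV, known as a testis gene in mammals, was the 1 member of this list at least 2-fold higher, beside 4.91% of all tested genes. It had 30 counts in the non-lean and 10 in the lean library, a ratio of 1.73 [0.70, 2.97], and its mean was near the cutoff of 1 CPM. All 30 counts in the non-lean library came from a model with 0 in the lean library, and the 10 lean counts came from a model with 0 in the non-lean library.

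Further proteins of the endoplasmic reticulum and nucleus had intervals that held 0. SELENOS, a membrane protein of protein retrotranslocation, had 360 counts in the non-lean and 361 in the lean library, a ratio of 0.18 [-0.03, 0.40]. SELENOM, a thioredoxin-like protein of the endoplasmic reticulum, had 140 counts in the non-lean and 186 in the lean library, a ratio of -0.22 [-0.55, 0.10]. SELENOH, a nucleolar redox protein, had 199 counts in the non-lean and 236 in the lean library, a ratio of -0.06 [-0.34, 0.22]. TXNRD3, a reductase best known from testis, had 60 counts in the non-lean and 50 in the lean library, a ratio of 0.45 [-0.12, 1.02].

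The deiodinases, which activate or inactivate thyroid hormone, were at the edge of detection. DIO2, the activating enzyme found in muscle, had 3 counts in the non-lean and 8 in the lean library. DIO1 had 4 counts in the non-lean and 8 in the lean library, and DIO3 had 6 in the non-lean and 8 in the lean library. GPX2, the peroxidase of the gut lining, had 6 counts in each library, and GPX6 had 0 in both, which allows up to 0.224 CPM in the non-lean and 0.197 CPM in the lean library at 3 counts. No difference in these 5 genes was detectable at this depth.

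**Figure D4:**
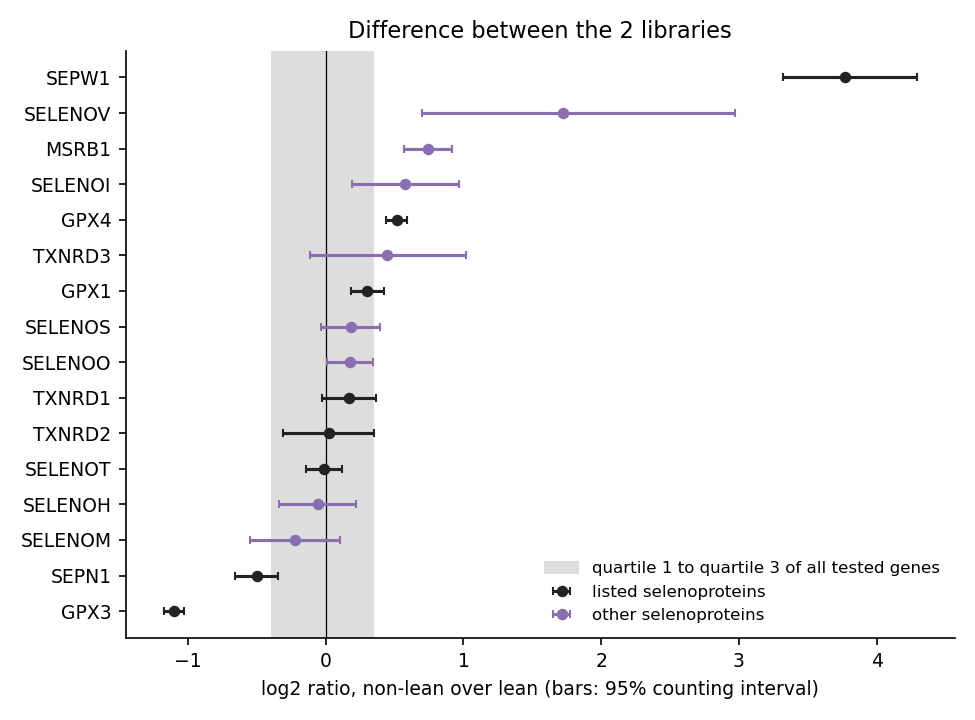
Log2 of non-lean over lean CPM with its 95% counting interval for the 8 listed selenoproteins (black) and the 8 other tested selenoproteins (violet), over a grey band between the outer quartiles of all tested genes, -0.39 to 0.34. SEPW1 and SELENOV lie farthest to the right and GPX3 and SEPN1 farthest to the left.

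Of 15 genes that place selenocysteine or supply selenium, 12 were tested and none was at least 2-fold apart. Of all tested genes, 4.91% were at least 2-fold higher and 7.16% lower, so few would be looked for among 12. Intervals lay below 0 for 4 of the 12, beside 28.8% of all tested genes, and above 0 for 1, beside 25.8%. The median log2 ratio was -0.11, against -0.01 over all tested genes. With total counts 1 interval lay below 0 and 3 above, beside 2864 and 4805 of 13725 tested genes. The median was then 0.03, against 0.13 over all tested genes. The sign of the list median thus depends on the scaling, but under both it lay below that of all tested genes. SECISBP2, the protein that binds the hairpin of selenoprotein messages, had 249 counts (18.6 CPM) in the non-lean library and 415 counts (27.3 CPM) in the lean library, a ratio of -0.55 [-0.78, -0.32]. SCLY, a lyase that frees selenium from selenocysteine, had 113 counts in the non-lean and 170 in the lean library, a ratio of -0.40 [-0.76, -0.05].

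EEFSEC, the elongation factor that carries selenocysteine transfer RNA, had 209 counts in the non-lean and 277 in the lean library, a ratio of -0.22 [-0.49, 0.04]. SEPSECS, which makes selenocysteine on its transfer RNA, had a ratio of -0.35 [-0.82, 0.10], and TRNAU1AP, a protein associated with that transfer RNA, one of 0.48 [-0.04, 1.01]. The RNA-binding proteins CELF1 and NCL were lower at -0.16 [-0.29, -0.03] and -0.11 [-0.19, -0.02], although NCL was at 0.034 with total counts, and the ribosomal protein RPL30 was higher at 0.20 [0.13, 0.27]. LRP8, a receptor for selenoprotein P, had 0 counts in the non-lean and 5 in the lean library, below the filter.

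The glutathione system, whose enzymes feed and follow the peroxidases, had 28 tested genes. Intervals lay above 0 for 16, beside 25.8% of all tested genes, and below 0 for 3, beside 28.8%. An interval narrows as counts rise, so abundant genes pass with small ratios. By the 2-fold rule 0 were higher, beside 4.91% of all tested genes, and 2 lower, beside 7.16%. The median log2 ratio was 0.23, and 0.37 with total counts, against -0.01 and 0.13 over all tested genes. GSTZ1, an enzyme of tyrosine breakdown, was highest at 0.95 [0.66, 1.24], and GSTM5 followed at 0.78 [0.71, 0.85]. The abundant members GLO1, which detoxifies methylglyoxal, and GSTP1 were higher at 0.15 [0.08, 0.23] and 0.22 [0.14, 0.29]. MGST1, a membrane-bound transferase, was lower at -1.45 [-2.03, -0.92] with 38 counts in the non-lean and 119 in the lean library.

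GSTM2 was lowest, 6.70-fold lower in non-lean muscle, with 363 counts in the non-lean and 2770 in the lean library. GSTM genes are close copies of each other, and estimated counts divide shared reads among them, so single values are uncertain. The sum of the 4 matched GSTM genes, formed after their values were seen, was 438 CPM in the non-lean and 441 CPM in the lean library, a log2 ratio of -0.01.

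The thioredoxin and peroxiredoxin list, which holds the substrates of the thioredoxin reductases, had 17 tested genes, 8 with intervals above 0 and 5 below, beside 25.8% and 28.8% of all tested genes. Its median log2 ratio was 0.21, and 0.36 with total counts, against -0.01 and 0.13 over all tested genes. TXNIP, which binds thioredoxin and restrains glucose uptake, was lowest, with 6847 counts (512 CPM) in the non-lean library and 14195 counts (933 CPM) in the lean library, a ratio of -0.87 [-0.91, -0.82]. TXNDC5, a disulfide isomerase, was also lower, at -0.67 [-0.95, -0.41].

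Among methionine sulfoxide reductases that lack selenium, MSRB2, the mitochondrial form, was the highest of the list at 0.79 [0.64, 0.94], with 935 counts in the non-lean and 614 in the lean library. Its interval overlapped that of the selenoprotein MSRB1. MSRB3 was lower at -0.46 [-0.54, -0.37], with 1795 counts in the non-lean and 2801 in the lean library, and so was MSRA, at -0.56 [-0.91, -0.22]. PRDX3, the mitochondrial peroxiredoxin that works with TXNRD2, was higher at 0.46 [0.38, 0.54], whereas the ratio of TXNRD2 itself was 0.02. TXNDC17 had a ratio of 0.66 [-0.01, 1.36] from 46 counts in the non-lean and 33 in the lean library.

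Of the 20 tested partners and regulators of selenoproteins, 7 had intervals above 0, beside 25.8% of all tested genes, and 9 below, beside 28.8%. Their median log2 ratio was -0.14. HMOX1, haem oxygenase and a target of the oxidative stress factor NRF2, had 126 counts in the non-lean and 67 in the lean library, 2.13-fold higher with a log2 ratio of 1.09 [0.66, 1.55]. Other genes of that response lay on both sides of 0. PRDX1 was higher at 0.44 [0.30, 0.57] and GSR at 0.40 [0.12, 0.69]. NFE2L2, which encodes NRF2, was lower at -0.15 [-0.30, -0.002], and at -0.008 with total counts. KEAP1 of the same list was lower at -0.38 [-0.53, -0.23]. The NRF2 target NQO1 had a ratio of -0.21 [-0.44, 0.02]. The targets GCLC, GCLM and SRXN1 had ratios of -0.03, -0.14 and -0.19 with intervals that held 0. DERL3, a derlin of the retrotranslocation machinery, had 27 counts in the non-lean and 11 in the lean library, a ratio of 1.44 [0.42, 2.64]. UGGT1, a glycoprotein folding sensor, was lower at -0.81 [-1.10, -0.53].

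**Figure D5:**
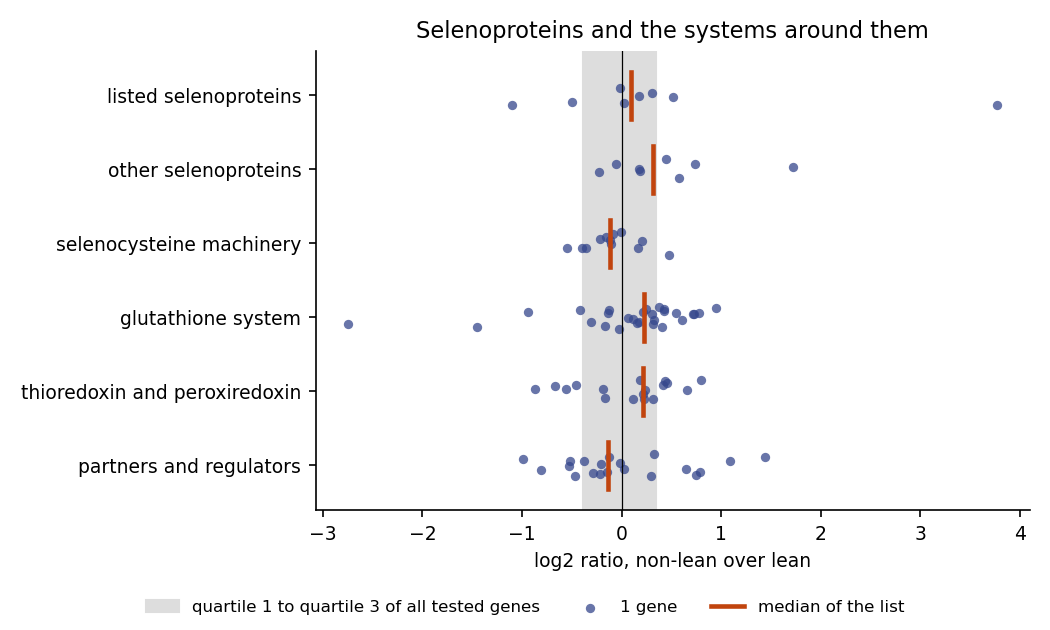
Log2 of non-lean over lean CPM for each tested gene (points, spread vertically for display) of the listed selenoproteins and of 5 lists around them, with the median of each list as a bar and the range between the outer quartiles of all tested genes in grey. Medians lie between -0.14 for partners and regulators and 0.31 for other selenoproteins, while SEPW1 at 3.77 and GSTM2 at -2.74 mark the ends.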

How the data were processed

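Polyadenylated RNA of gastrocnemius muscle was sequenced on a BGISEQ-500 instrument, per the labels' protocols, which name no step that marks strand. The deposited files hold expected counts, estimated read counts per RefSeq transcript model that need not be whole. STAR 2.7.8a, RSEM 1.3.3 and Trim Galore 0.6.6 appear, with no role, in the submitters' processing notes, and the genome build is not given in the sources used here. Gene values are sums over transcript models, rounded to whole counts. Names were completed from RefSeq genes of the T2T-MFA8v1.1 assembly, by NCBI gene number or transcript accession. SELENOF, SEPHS2, PSTK, GSTM1, GSTT1, GGT5, PRDX6 and NME1 of the gene lists were not matched by name and are not analysed here.

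Scaling used the trimmed mean of M-values (edgeR 4.0.16, R 4.3.3). Scaled CPM and log2 ratios, with 0.5 added to each count as a prior, were computed with scipy 1.17.1, pandas 2.3.3 and numpy 2.4.6 in Python 3.11.15, and matplotlib 3.10.9 drew the figures. Each 95% interval comes from the exact Clopper-Pearson limits for how a gene's counts split between the libraries. It was tried on simulated Poisson counts, the same model that the limits assume. That trial held no error between animals, in scaling or from dividing reads, so it cannot speak to those. PCR copies were not collapsed by molecular identifiers, so these limits and the floors (3 counts per library) cover counting error only. DESeq2 1.42.0 gave the median of ratios as another scaling. Tested genes have a mean of at least 1 CPM, and called genes are at least 2-fold apart with an interval that excludes 0. All members and all detected genes of the selenoprotein and machinery lists could be named, and of the other 3 gene lists the 2 highest, the 2 lowest and the 3 most abundant, with the 3 genes nearest to SEPW1. Marker genes and a few other list genes, such as YWHAB, MSRA, NQO1 and PRDX1, are named outside this rule, after their values were seen. The members and lists were chosen with earlier results of these data known.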

Additional observations from a re-analysis of the deposited data

How the results depend on the processing

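No paired analysis was possible because each group has 1 library. Leaving out a library was not possible for the same reason. Over 5 settings (3 other scalings, a prior count of 5 and unrounded counts), 430 of 465 gene ratios stayed within their counting interval and 35 moved beyond it. With total counts, which moves all genes by nearly the same amount, 10 genes close to 0 changed sign in ratios rounded to 2 decimals. The intervals of 2 of these, NCL at 0.034 and YWHAB at 0.018, had excluded 0, and those of the other 8, SELENOT among them, had held 0. GCLM, whose interval also held 0, went from -0.14 to 0.003 and was not counted because 0.003 rounds to 0. With the upper quartile 4 genes and with the median of ratios 2 genes changed sign, all with intervals that held 0. The total-count scaling shifted the median of tested genes by 0.14. It also moved the share of higher genes among those at least 2-fold apart to 56.0%, against 40.7%. It left 0 members at least 2-fold lower (GPX3 at -0.96) and 5 members with intervals above 0. Of the machinery genes, 3 intervals lay above and 1 below 0, and 1 glutathione gene was at least 2-fold higher. Medians were 0.37 and 0.36 for the glutathione and thioredoxin lists. The counts over all tested genes moved too, to 4805 intervals above 0, against 3530, and 2864 below, against 3941. At least 2-fold higher were 931 genes, against 673, and 732 were lower, against 982. With the upper quartile, 2 machinery intervals lay above and 2 below 0, beside 3892 and 3580 of 13718 tested genes. With the median of ratios, 1 partner gene was at least 2-fold lower, beside 1040 of 13713 tested genes. All detected genes held 1082 at least 2-fold higher. Among genes of at least 5 CPM, 231 were at least 2-fold higher and 485 lower, with 0 other selenoproteins and 1 partner gene at least 2-fold higher, as fewer genes are tested there. Without SEPW1, an alternative chosen after seeing the data, 0 members were at least 2-fold higher. Without the 10 most abundant genes in the denominator, the members took 0.0900% of the counts in the non-lean and 0.0970% in the lean library. The median of members was 0.16 when only genes named by symbol were used, also chosen after seeing the data. Depth limits genes of few counts, among them TXNRD2 with 167 counts or fewer a library, TXNRD3, SELENOV and the deiodinases.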
